A study of Mus musculus with 12 samples.

Results

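The fatty acid desaturase genes Fads1, Fads2 and Fads3 and the fatty acid elongase genes Elovl1 to Elovl7 were examined across 12 mouse livers. These 10 genes were taken by symbol from the 49398 genes of the deposited table, and 9 of them had enough reads to be tested. Elovl4 was the exception. The livers came from wild-type C57BL/6J mice aged 9 months that had eaten AIN-93G chow for 8 weeks. The control chow had no added oil, and the other chows had 1% or 5% by weight of a concentrated fish oil with a high content of very-long-chain polyunsaturated fatty acids (VLCPUFA). Each diet was represented by 4 livers, 2 from males and 2 from females, and all mice had fasted for 5 hours. Animals carry numbers: control males N967 and N968, control females N979 and N980, 1% males N971 and N972, 1% females N983 and N984, 5% males N975 and N976, and 5% females N987 and N988.

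Mammals lengthen and desaturate dietary fatty acids in the endoplasmic reticulum. In the polyunsaturated branch Fads2 adds the first double bond, Elovl5 and Elovl2 add carbon pairs, and Fads1 adds a further double bond; the products include arachidonic acid and, after a round of peroxisomal shortening, docosahexaenoic acid. In the saturated and monounsaturated branch Elovl6 lengthens palmitate, and Elovl1, Elovl3 and Elovl7 lengthen longer chains. Elovl4 makes the very long chains of retina, skin and brain, and Fads3 puts a double bond into sphingoid bases. The liver is a main site of the polyunsaturated branch, and dietary polyunsaturated fatty acids are known to lower its mRNAs through the transcription factor SREBP-1, the product of Srebf1.

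Libraries held 5291385 to 15674130 estimated reads, with control female N979 the shallowest. Library N979 stood apart: 8.42% of its transcript reads were missing from its gene table, against 0.406 to 1.01% in the other 11. Calls on the genes named here that changed without it are given both ways. The nuclear noncoding RNAs Malat1, Neat1, Meg3 and Kcnq1ot1, whose share of the reads can follow RNA quality, took 0.14% of reads in 5% female N988 and 0.0936% in N979, against 0.0235 to 0.0716% in the other 10; the part of this share in the results was tested only by adding it to the fit. The 6 hepatocyte markers were detected in every liver, at a summed 87800 to 170100 CPM, a gene's reads scaled to its library's total. In bulk liver, fewer cells of a type and less RNA per cell cannot be told apart. The labels do not say whether the mice came from separate litters or cages. P-values of the main fit set differences against the spread between livers left after diet and sex. They treat the 12 livers as independent.

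By medians over all 12 livers the polyunsaturated branch held the highest levels. The unit is reads per kilobase of transcript, scaled as CPM are but to the library's unadjusted total of gene reads. Elovl5 had a median of 395 (189 to 670 over the 12 livers). Fads2 had 182 (99.1 to 328), Fads1 180 (128 to 296) and Elovl2 102 (36.9 to 208). Elovl5 was above Fads2 in 12 of 12 livers and Fads1 was above Elovl2 in 12 of 12, while Fads2 was above Fads1 in only 6, so that pair did not differ in level beyond its spread. On the same per-length scale Elovl3 had a median of 56.2 (0.296 to 320), Elovl6 of 52.1 (14.7 to 188) and Elovl1 of 26.4 (22.2 to 30). The Elovl3 median lies between separate sexes, with medians of 277 in males, second only to Elovl5 there, and 2.04 in females. Elovl6 was above Elovl2 by median in females (81.5 against 60.7) and in 5% livers (132 against 83.8). The neighbours Elovl2 and Elovl3, Elovl3 and Elovl6, and Elovl6 and Elovl1 changed places among livers, with the first of each pair higher in 7, 5 and 7 of the 12. Fads3 followed at 0.817, Elovl7 at 0.109 and Elovl4 at 0.0298. Elovl1 was above Fads3 in all 12 livers, and Fads3 above Elovl7 in all 12, with no overlap of ranges.

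**Figure D1:**
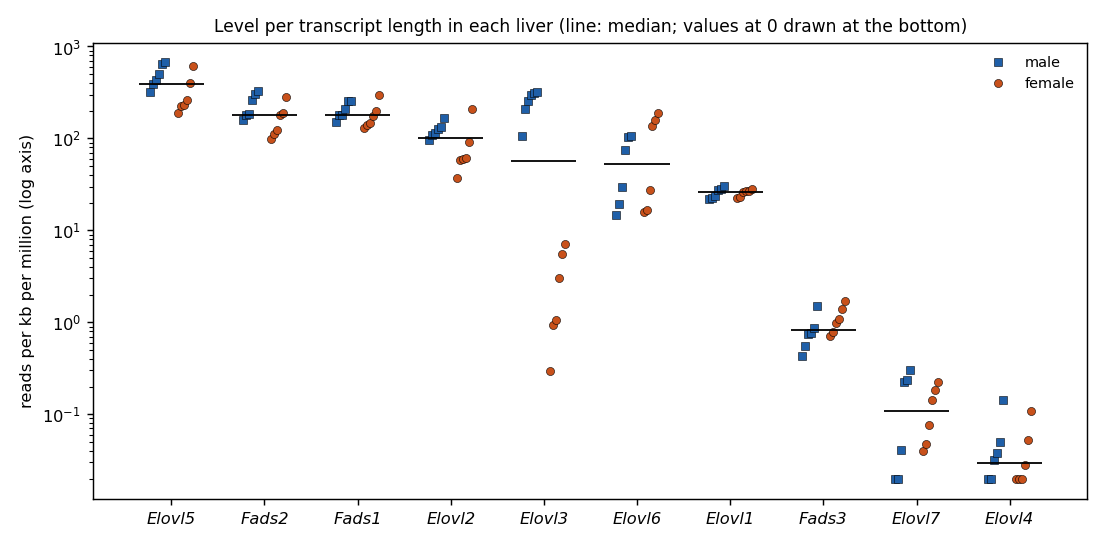
Reads per kilobase of transcript (log axis) of the 10 genes in each of 12 livers, scaled to the library's unadjusted total of gene reads. Squares are 6 males and circles 6 females, with a line at the median of all livers. Elovl5 had the highest median, 395, and Elovl3 had separate male and female ranges, with medians of 277 and 2.04.

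Fads1, Fads2 and Fads3 lie beside each other on chromosome 19, which also carries Elovl3, and in the RefSeq annotation of GRCm38.p6 the cluster also holds the noncoding gene Gm29917 and the pseudogene Gm50359. Whether the counting used strand is not stated, so reads of overlapping genes cannot be told apart. RefSeq promoter windows of GRCm38.p6 matched 8 of the 10 genes; Fads1 and Elovl3 had no entry. The 250 bases before the start are shown for Fads2 and Elovl5, whose mRNAs had Pearson's r = 0.84 over 12 livers, but 0.327 within males. They are also shown for Elovl6, which had r = -0.217 with Fads2 and 0.0593 with Elovl5. The Fads2 window is chr19:10101504-10101753 (minus strand), the Elovl5 window chr9:77917115-77917364 (plus strand) and the Elovl6 window chr3:129532136-129532385 (plus strand). Capitals mark matches, on either strand, to a searched motif.
Fads2: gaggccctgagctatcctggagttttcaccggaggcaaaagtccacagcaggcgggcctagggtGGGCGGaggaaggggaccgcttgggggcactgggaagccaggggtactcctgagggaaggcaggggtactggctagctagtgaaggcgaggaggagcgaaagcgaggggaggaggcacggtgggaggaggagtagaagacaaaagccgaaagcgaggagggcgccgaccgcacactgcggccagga
Elovl5: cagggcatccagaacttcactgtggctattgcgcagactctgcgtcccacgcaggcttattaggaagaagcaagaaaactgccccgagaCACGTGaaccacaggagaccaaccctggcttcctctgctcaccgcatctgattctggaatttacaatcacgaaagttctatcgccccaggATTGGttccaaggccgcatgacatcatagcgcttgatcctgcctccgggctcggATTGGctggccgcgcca
Elovl6: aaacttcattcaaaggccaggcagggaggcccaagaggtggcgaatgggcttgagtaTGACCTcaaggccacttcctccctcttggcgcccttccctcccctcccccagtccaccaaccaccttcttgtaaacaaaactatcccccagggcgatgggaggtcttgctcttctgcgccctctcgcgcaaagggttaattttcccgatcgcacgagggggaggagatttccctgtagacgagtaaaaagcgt
The 6 motifs searched were the sterol regulatory element TCACNCCAC, the NF-Y box CCAAT, the E-box CACGTG, the D-box TTATGTAA, the nuclear receptor motif AGGTCA and the GC box GGGCGG, and none of them overlapped another in these windows. They are found in 1.24%, 37.4%, 7.15%, 0.938%, 16.3% and 35.7% of 32851 promoter windows of 300 bases, in that order. Elovl5 held an E-box 161 bases before the start and NF-Y boxes 71 and 17 bases before it, on the opposite strand. Elovl6 held a nuclear receptor motif 193 bases before the start, on the opposite strand, and Fads2 a GC box 186 bases before it. These are matches of letters in a window and not measured binding.

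The 5% diet against control tests the response to the higher dose. The 4 genes of the polyunsaturated branch had lower means with 5% oil than without it, but no desaturase or elongase passed the threshold. At an adjusted p below 0.05 in edgeR's quasi-likelihood test, 0 of 9 genes were called, against 2.46% of the 13814 genes tested (340). At an unadjusted p below 0.05 there were 4 of 9, all lower, against 14.6% of all genes, namely Fads1, Fads2, Elovl2 and Elovl5. This count was 1, Elovl5, without control female N980, 2, Elovl5 and Fads2, without 5% female N987 or N988, 3 without N967 and 5 without N975 or N976. The median log2 fold change of the 9 genes was -0.62, beside 0.013 over all genes. DESeq2 called 1 of the 9, Elovl5, and limma voom and limma trend called 0.

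Elovl5, which elongates polyunsaturated acyl-CoAs of intermediate length, came closest to the threshold. Its CPM were 1926.5 and 2007 in control males, 597 and 1898 in control females, 1209 and 1551 in 1% males, 1049 and 719 in 1% females, 1101 and 864 in 5% males, and 490 and 571 in 5% females. The 5% livers lay below 3 of the 4 controls, and the ranges overlapped through N979. Elovl5 averaged 757 ± 280 CPM with 5% oil and 1607 ± 675 CPM on the control diet (SD, n = 4 each). Its log2 fold change was -1.12 ± 0.28 (SE, edgeR adjusted p = 0.0529). Without control N979 the value was -1.35 ± 0.21 with an edgeR adjusted p of 0.00522, and without control N980 it was -0.74 ± 0.24 with an edgeR adjusted p of 0.179. Across the alternatives the adjusted p ran from 3.14e-05, with no filter on low counts, to 0.243. That no-filter fit called 1011 of 25400 genes.

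Fads2, the entry desaturase, had 587 and 537 CPM in 5% males and 289 and 311 CPM in 5% females, against 970 and 555 CPM in control males and 370 and 999 CPM in control females. The groups overlapped, and within each sex the 5% livers were near each other while the controls lay apart. Its log2 fold change was -0.83 ± 0.28 (edgeR adjusted p = 0.157). Fads1, the later desaturase, had 597 and 575 CPM in 5% males and 400 and 403 CPM in 5% females, against 863 and 551 CPM in control males and 461 and 1089 CPM in control females. In females both 5% livers were below both controls, and in males they lay between the controls. Its log2 fold change was -0.62 ± 0.25 (edgeR adjusted p = 0.252). Elovl2, which elongates the longest polyunsaturated chains on the route to docosahexaenoic acid, had 441 and 401 CPM in 5% males and 211 and 125 CPM in 5% females. Controls had 668 and 411 CPM in males and 226 and 888 CPM in females. The ranges overlapped, and its log2 fold change was -1.06 ± 0.41 (edgeR adjusted p = 0.245). For Fads1, Fads2 and Elovl2 the control females held both ends of the control range, N979 the lowest and N980 the highest. Without N980 the log2 fold changes shrank to -0.38 for Fads2, -0.24 for Fads1 and -0.39 for Elovl2 (edgeR adjusted p = 0.436, 0.629 and 0.524), and without N979 they were -0.99, -0.763 and -1.26 (edgeR adjusted p = 0.0718, 0.126 and 0.155). Over all alternatives the adjusted p ran from 0.00808 to 0.462 for Fads2, 0.115 to 0.629 for Fads1 and 0.000152 to 0.524 for Elovl2. The lowest values for Fads2 and Elovl2 came with no filter on low counts.

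**Figure D2:**
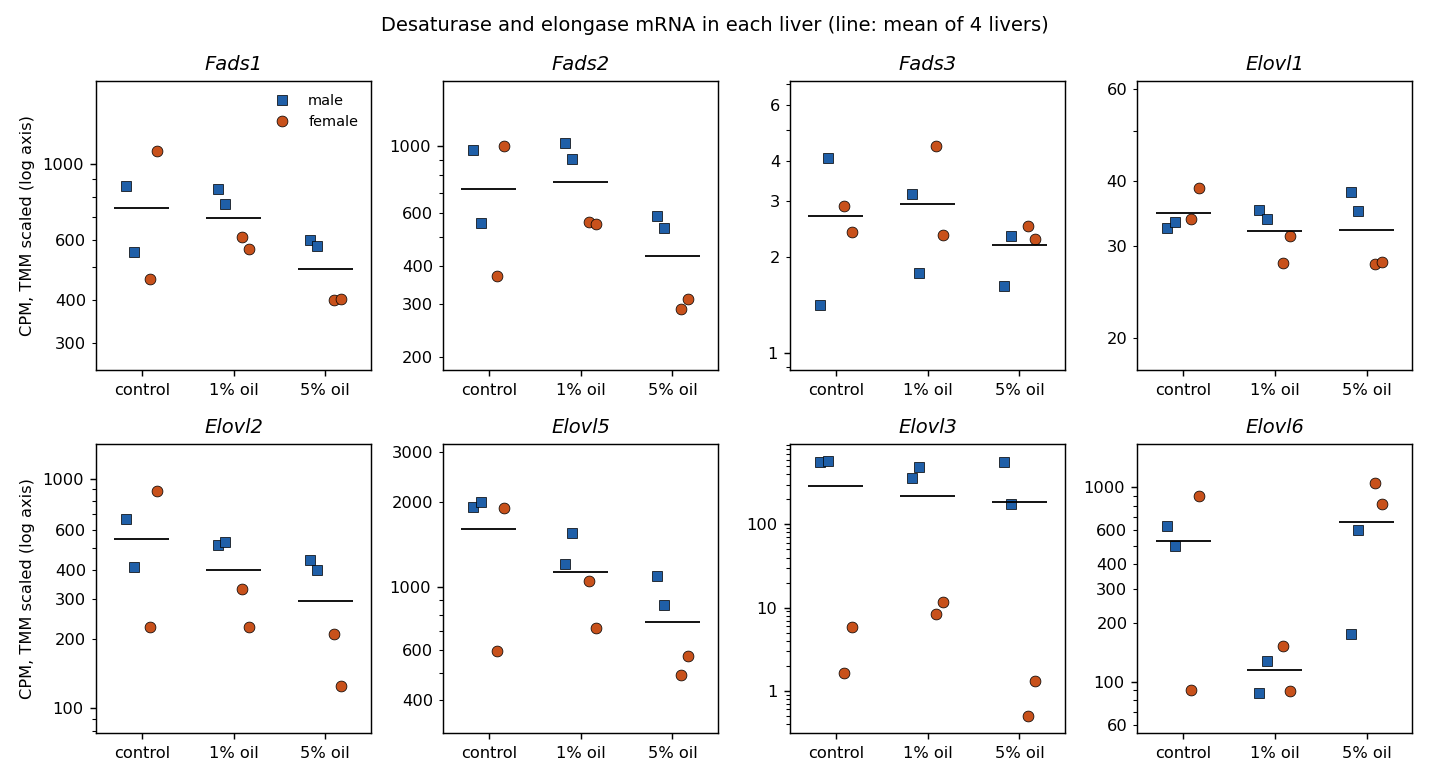
TMM-scaled CPM (log axis) of 8 genes in each liver by diet, squares for males, circles for females, with a line at the mean of 4 livers; Elovl4 and Elovl7, with at most 11 reads a liver, are left out. Elovl5 lay between 490 and 1101 CPM in the 5% livers, Elovl6 between 87.1 and 152 CPM in the 1% livers, and Elovl3 was above 170 CPM in males alone.

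The 1% diet against control tests the lower dose. Again 0 of 9 genes were called by edgeR, against 0.224% of all genes (31), and 2 of 9 had an unadjusted p below 0.05, against 11.1% of all genes, with Elovl6 lower and Elovl7 higher. That count was 1, Elovl6, without N967, N968, N983, N971 or N972, and 3 without N979 or N980. The median log2 fold change of the 9 genes was -0.12, beside 0.00063 over all genes. DESeq2 called 1, Elovl6, and limma voom and limma trend called 0. In the polyunsaturated branch the log2 fold changes were 0.0035 ± 0.28 for Fads2, -0.12 ± 0.25 for Fads1, -0.57 ± 0.40 for Elovl2 and -0.50 ± 0.28 for Elovl5, with edgeR adjusted p values of 0.998, 0.888, 0.632 and 0.52. The 95% interval of the Fads2 difference ran from -0.54 to 0.55 on the log2 scale. Both 1% males had higher Fads2 than the 1% females, at 1028 and 904 CPM against 560 and 550 CPM.

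Elovl6, which lengthens palmitate in fatty acid synthesis, followed the doses in another order than the polyunsaturated branch. It had 629 and 497 CPM in control males and 90.3 and 897 CPM in control females, 87.1 and 127 CPM in 1% males and 152 and 89.8 CPM in 1% females, and 176 and 604 CPM in 5% males and 1042 and 817 CPM in 5% females. The 1% livers were all low and near each other. Control N979 was in their range, and every 5% liver was above it. Elovl6 averaged 114 ± 31.3 CPM with 1% oil and 529 ± 336 CPM on the control diet (SD, n = 4 each). The log2 fold change was -2.24 ± 0.65 (edgeR adjusted p = 0.237). Without N979 it was -2.63 ± 0.41 with an edgeR adjusted p of 0.0157. Across the alternatives the adjusted p ran from 4.69e-20, with no filter on low counts, to 0.695. The 5% livers averaged 660 ± 369 CPM (SD, n = 4). Their log2 fold change against control was 0.22 ± 0.63 (edgeR adjusted p = 0.933), with a 95% interval from -1.02 to 1.46; without N979 it was -0.22 and without 5% female N987 it was -0.0022.

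The doses were also compared with each other. In the 5% against the 1% livers edgeR called 0 of 9 genes, against 1.33% of all genes (184), and 4 of 9 had an unadjusted p below 0.05, against 17.8% of all genes. Elovl6 was higher, and Fads2, Elovl5 and Elovl3 were lower. The count was 2, Elovl6 and Fads2, with the noncoding share in the fit and without N967, N983, N987, N988 or N976, and 5 without N980. The median of the 9 genes was -0.50 on the log2 scale, beside 0.0040 over all genes. DESeq2 called 1, Elovl6, and limma voom and limma trend called 0. The log2 fold change of Elovl6 was 2.46 ± 0.66 (edgeR adjusted p = 0.0997). Leaving out N979 gave 2.41 with an edgeR adjusted p of 0.0165, and leaving out N975 gave 2.82 with 0.0363; over all alternatives the adjusted p ran from 4.70e-24 to 0.298. Fads2 had -0.83 ± 0.28 (edgeR adjusted p = 0.15), and -0.84 with 0.0387 without control N980, in a range from 0.00614 to 0.402 over the alternatives. The lowest adjusted p of Elovl6 and of Fads2 here came with no filter on low counts. Elovl5 had -0.61 ± 0.28 and Fads1 -0.50 ± 0.24, with edgeR adjusted p values of 0.267 and 0.304.

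**Figure D3:**
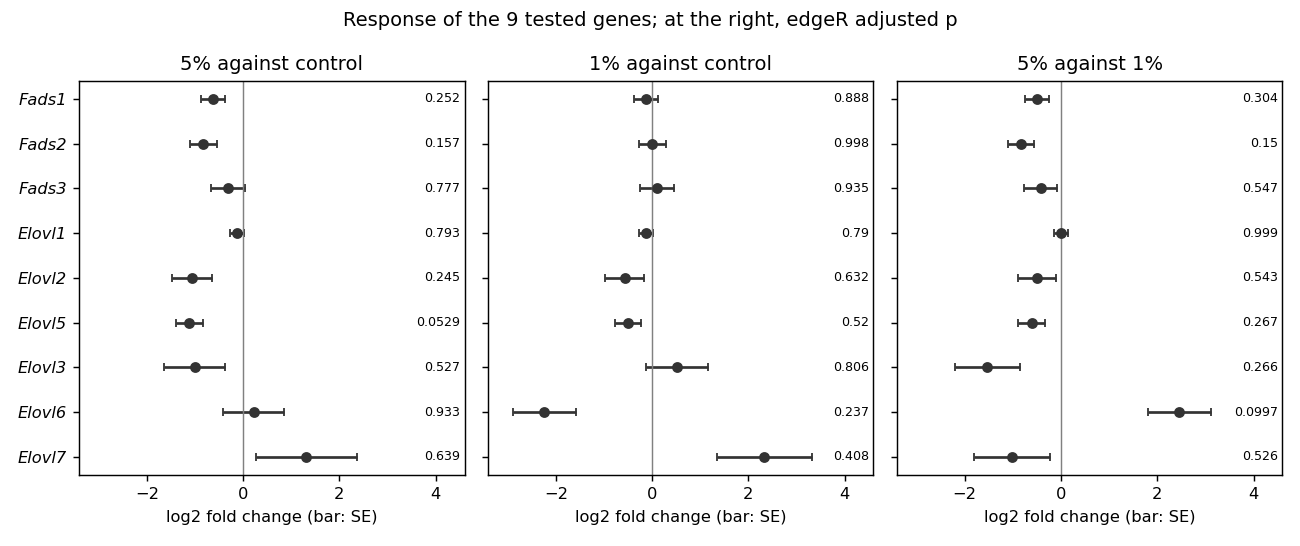
Log2 fold changes with their standard errors for the 9 tested genes in the 3 diet comparisons, with edgeR adjusted p values at the right edge of each panel. Elovl6 was at -2.24 for 1% against control and at 2.46 for 5% against 1%, while Elovl5 was at -1.12 for 5% against control.

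Levels of clock genes and cell type markers were recorded by diet beside these genes. Of 12 clock genes 5 rose and 3 fell with 5% oil at edgeR adjusted p below 0.05, against 2.46% of all genes. With 1% oil 1 rose, against 0.224% of all genes. Leaving out single livers gave 5 to 6 higher and 2 to 3 lower with 5% oil; with 1% oil it gave 0 to 3 higher, with 0 when N980, N967, N968, N984, N971 or N972 was out, 2 when N979 or N987 was out, and 3 when N983 or N975 was out. Dbp, a clock output transcription factor, was at 12.7 to 40.0 CPM in 5% livers and 1.62 to 19.99 CPM in 1% livers, against 0.157 to 1.1 CPM in controls. Kupffer cell markers summed to 125 to 328 CPM with 5% oil and 131 to 320 CPM with 1% oil, against 255 to 531 CPM in controls, with 0 of 8 markers at 0. Of those 8 markers edgeR called 0 for either dose, and at an unadjusted p below 0.05 it found 0 lower with 5% oil and 8 lower with 1% oil. Over all genes, in either direction, the unadjusted shares were 14.6% and 11.1%. Red cell markers summed to 104 to 221 CPM with 5% oil and 70.7 to 548 CPM with 1% oil, against 241 to 515 CPM in controls, with 0 of 5 at 0, and 1 of the 5, Alas2, fell with 5% oil (edgeR adjusted p = 0.0169). Pancreas markers summed to 11 to 12.8 CPM with 5% oil and 10.46 to 27.0 CPM with 1% oil, against 16.5 to 36.7 CPM in controls; at least 2 of the 4 were at 0 in every liver, and Cela1, the 1 tested, fell with 5% oil (edgeR adjusted p = 0.038). Endothelial markers summed to 121 to 147 CPM with 5% oil, against 155 to 259 CPM with 1% oil and 122 to 231 CPM in controls. In 5% against 1% livers edgeR called 0 of the 6. At an unadjusted edgeR p below 0.05, 4 of the 6 were lower, against 17.8% of all genes in either direction. The part of these clock genes and markers in the desaturase and elongase values was not tested.

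Elovl3, an elongase of saturated and monounsaturated chains known in mouse liver for its male bias, was higher in males in every diet. Males had 561 and 582 CPM in controls, 360 and 486 CPM with 1% oil, and 562 and 178 CPM with 5% oil. Females had 1.63 and 5.799 CPM in controls, 8.46 and 11.6 CPM with 1% oil, and 0.4999 and 1.33 CPM with 5% oil. The sexes did not overlap. The mean was 455 ± 158 CPM in males and 4.88 ± 4.49 CPM in females (SD, n = 6 each), from 25898 and 277 reads in all. The log2 fold change, male over female, was 6.94 ± 0.64 (edgeR adjusted p = 0.000131), and it was the 1 call among the 9 genes, against 8.94% of all genes (1235). Per transcript length Elovl3 was the second highest of the 10 genes in males, with a median of 277, and the seventh in females, with a median of 2.04.

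No diet comparison of Elovl3 passed the threshold. Its log2 fold change was -1.01 ± 0.63 for 5% against control, 0.52 ± 0.65 for 1% against control and -1.53 ± 0.67 for 5% against 1%, with edgeR adjusted p values of 0.527, 0.806 and 0.266. Without 5% male N975 the last was -2.31 with an edgeR adjusted p of 0.0409. Across the alternatives that p ran from 6.90e-08, with no filter on low counts, to 0.975. Among females the 1% livers were above both controls and the 5% livers were below both. Males in the 1% group lay below both male controls. The difference between the sexes in the 1% response was -1.76 ± 0.84 on the log2 scale (edgeR unadjusted p = 0.0617, adjusted p = 1.00). For 5% it was 1.498 ± 0.92 (edgeR adjusted p = 1.00).

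The polyunsaturated branch also tended to be higher in males, by smaller amounts that missed the threshold. Elovl5 averaged 1443 ± 463 CPM in males and 888 ± 533 CPM in females (SD, n = 6 each). The log2 fold change was 0.73 ± 0.23 (edgeR adjusted p = 0.059). Fads2 averaged 763 ± 227 CPM in males and 513 ± 265 CPM in females, with 0.62 ± 0.23 (edgeR adjusted p = 0.097), and Elovl2 had 0.73 ± 0.33 (edgeR adjusted p = 0.171). The ranges of the sexes overlapped for all 3 genes. Control female N980 was the highest female for each of them. Without N980 edgeR called 5 genes higher in males, which were Elovl3, Elovl2, Elovl5, Fads1 and Fads2, with log2 fold changes of 1.17, 1.01, 0.55 and 0.92 for the last 4. In that fit edgeR called 2356 of 14609 genes in all, against 1235 of 13814 with every liver in. DESeq2, limma voom and limma trend called Elovl5 as well as Elovl3 with all livers in. Fads1 had 0.29 ± 0.20 and Elovl6 -0.41 ± 0.52, with edgeR adjusted p values of 0.353 and 0.629. With the noncoding share in the fit, Elovl5 was at 0.600, Fads2 at 0.49 and Elovl2 at 0.43, male over female (edgeR adjusted p = 0.22, 0.319 and 0.488). Lymphocyte markers also separated the sexes, at a summed 7.87 to 11.6 CPM in males and 12.4 to 17.8 CPM in females. Of these 4 markers edgeR called 1 lower in males, against 8.94% of all genes called, and their part was not tested.

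Whether the sexes responded differently to the oil was tested by interaction. For the 5% and the 1% response edgeR called 0 of 9 genes, against 0% of all genes in both, and 0 of 9 had an unadjusted p below 0.05; over all 13814 genes 645 and 517 did. DESeq2 called 0 of the 9 in both, 1 of them in each having an unadjusted p below 0.05, and limma voom and limma trend called 0. Over all 13814 genes DESeq2 called 31 and 6. With no filter on low counts 3 and 2 of 10 genes had an unadjusted edgeR p below 0.05. That setting called 229 and 109 of 25400 genes, with 0 of the 10 among them. With 2 livers per diet and sex these differences had standard errors of 0.27 to 2.24 on the log2 scale. Leaving out any liver leaves a lone one in its diet and sex group. In those fits the Fads2 difference in the 5% response ran from -0.19 to 1.3. The 95% interval for the Fads2 difference in the 5% response ran from -0.33 to 1.83.

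Elovl1, Fads3, Elovl4 and Elovl7 made up the remainder. Elovl1, an elongase of saturated and monounsaturated very long chains, was the most even of the 10 genes, at 27.8 to 38.9 CPM over all livers. It averaged 32.2 ± 5.16 CPM with 5% oil and 34.7 ± 2.85 CPM on the control diet (SD, n = 4 each), with a 95% interval from -0.41 to 0.16 for the log2 fold change. Fads3 had 9 to 58 reads a liver and 1.41 to 4.46 CPM, and its log2 fold change for 5% against control was -0.32 ± 0.36 (edgeR adjusted p = 0.777). Elovl7 had 0 to 11 reads a liver, with 18 reads over the 4 livers on 5% oil, 30 on 1% oil and 4 in the controls. Its log2 fold changes against control were 1.32 ± 1.04 for 5% and 2.33 ± 0.98 for 1%, with edgeR adjusted p values of 0.639 and 0.408, and they rest on these few reads. Elovl4, the elongase of the very long polyunsaturated chains that the oil supplies, had 0 to 5 reads a liver and was at 0 in 5 livers. A floor of 3 reads in a library corresponds to 0.184 to 0.544 CPM, so a count of 0 allows levels up to that.

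The genes of the polyunsaturated branch varied together across livers, and Elovl6 did not follow them over all 12. Fads1 and Fads2 gave Pearson's r = 0.968 and Spearman's rho = 0.944 over 12 livers (permutation p = 1e-05 for both, the smallest that 100000 resamples can give, 0.00045 after Benjamini-Hochberg adjustment over 45 relations). Without N967 and N980, the livers farthest from the median, r was 0.994. Within males r was 0.987 and within females 0.983. The ratio of Fads2 to Fads1 CPM stayed between 0.724 and 1.22. These r values include the shared differences of diet and sex.

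Elovl2 followed both desaturases, with r = 0.922 and rho = 0.916 against Fads1 (permutation p = 5e-05 and 6e-05, adjusted 0.00112 and 0.00135) and r = 0.901 and rho = 0.916 against Fads2 (permutation p = 8e-05 and 0.00011, adjusted 0.0012 and 0.00165). Leaving out the 2 farthest livers gave r of 0.865 and 0.927. Elovl5 gave r = 0.84 and rho = 0.797 against Fads2 (permutation p = 0.00102 and 0.00346, adjusted 0.00918 and 0.028), and r was 0.843 without the 2 farthest livers. Within sex it was r = 0.327 in males and r = 0.96 in females (exact permutation p = 0.51 and 0.00139, n = 6 each). Elovl5 against Fads1 gave r = 0.815 and rho = 0.727 (permutation p = 0.00175 and 0.0107, adjusted 0.0131 and 0.069), 0.731 without the 2 farthest livers, 0.276 in males and 0.98 in females. Elovl5 against Elovl2 gave r = 0.875 and rho = 0.874 (permutation p = 0.00021 and 0.00052, adjusted 0.00236 and 0.00585), 0.872 without the 2 farthest livers, 0.491 in males and 0.925 in females. The difference between the sexes in r was not tested.

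Elovl6 against Fads2 gave r = -0.217 and rho = -0.28 (permutation p = 0.491 and 0.38, adjusted 0.764 and 0.677), and r was 0.16 without N971 and N987. Against Fads1, Elovl2 and Elovl5 it gave r = -0.0855, 0.0255 and 0.0593 over all livers. Without the 2 farthest livers those r values were -0.635 (N967 and N980 out), 0.0837 (N980 and N988 out) and 0.627 (N987 and N988 out), so for Fads1 and Elovl5 the low values rested on those livers. The ratio of Elovl6 to Elovl5 CPM ran from 0.151 to 0.473 in controls, 0.072 to 0.145 with 1% oil and 0.16 to 2.12 with 5% oil. The 5% females had the highest ratios, 2.12 and 1.43. Srebf1 was at 144 and 151 CPM in control males and 165 and 105 CPM in control females, 124 and 96.5 CPM in 1% males and 74.3 and 52.5 CPM in 1% females, and 88.2 and 202 CPM in 5% males and 428 and 375 CPM in 5% females. Those 5% females were the highest 2 livers for Srebf1 and the lowest 2 for Fads2. Srebf1 gave r = 0.664 and rho = 0.559 with Elovl6 (permutation p = 0.0182 and 0.064, adjusted 0.0909 and 0.203) and r = -0.598 and rho = -0.573 with Fads2 (permutation p = 0.0407 and 0.0569, adjusted 0.131 and 0.203). Without N987 and N988 the r values were 0.453 and -0.075, so the second relation rested on those livers.

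**Figure D4:**
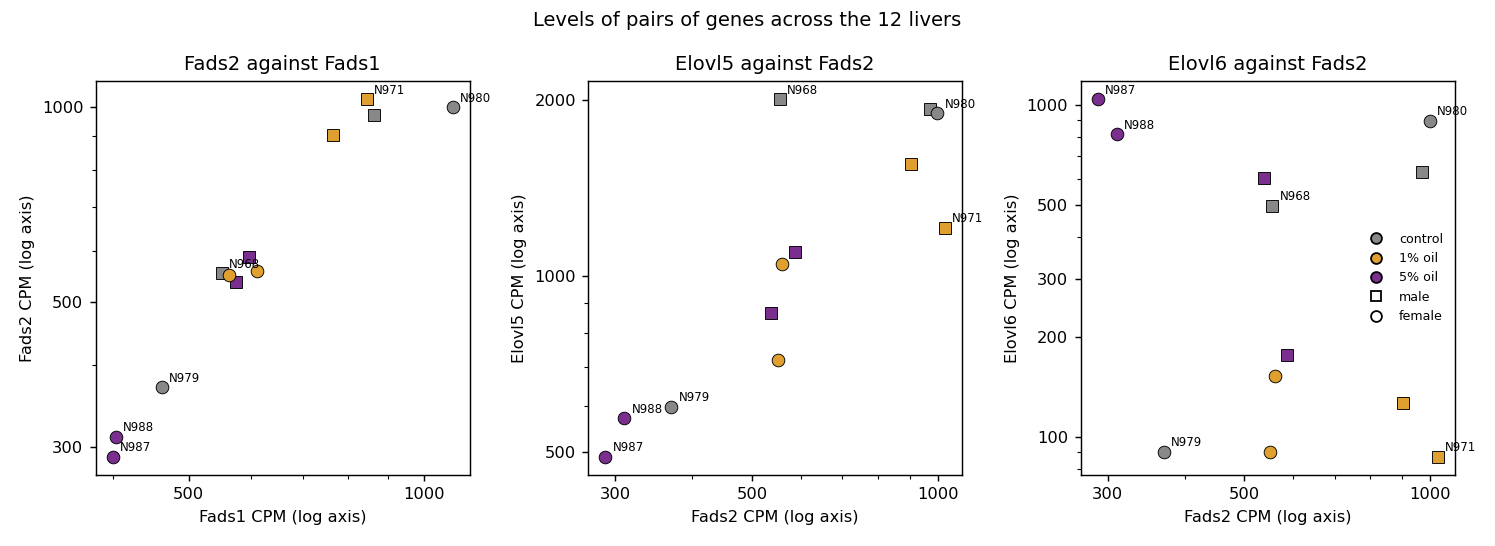
CPM of Fads2 against Fads1, of Elovl5 against Fads2 and of Elovl6 against Fads2 in 12 livers (log axes), with colour for diet, squares for males and circles for females, and 6 livers named. Fads1 and Fads2 lay along a line (r = 0.968), and in the third panel the 5% females N987 and N988 had the lowest Fads2 with 1042 and 817 CPM of Elovl6.

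Among 10501 named genes outside the family, the ones whose log2 CPM was most like each gene over the 12 livers were listed by Pearson's r. Clec14a led for Fads1 (r = 0.947) and for Fads2 (r = 0.934) and came second for Elovl2 (r = 0.954), after Ireb2 (r = 0.957). Ghr, the growth hormone receptor, was most like Elovl5 (r = 0.945). Ttc23 (r = 0.982), Enpep (r = 0.974) and Lrrc28 (r = 0.966) were most like Elovl6. Mup7 (r = 0.982), Mup20 (r = 0.981) and Mup21 (r = 0.965), major urinary protein genes of male mouse liver, were most like Elovl3; reads of these near-identical copies are shared out by estimation, and both sexes enter as separate clusters. Cfd, the 1 of 5 adipocyte markers with enough reads to be tested, was also higher in males, at 2.04 to 21.5 CPM in males and 0 to 0.312 CPM in females. The defining fat cell markers Adipoq and Plin1 were at most 0.197 and 0.43 CPM in males and 0.077 and 0.368 CPM in females, and Lep was at 0 in all livers.

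Transcript shares were read for 7 of the 10 genes. Elovl5-201, Elovl6-201 and Fads2-201 took at least 99.9%, 99.3% and 99.3% of their genes' estimated reads in every liver. Fads1 was split between Fads1-202, with a mean of 81.0%, and Fads1-201, with 18.6% (2.47 to 44.6% over livers). Fads1-201 was highest in 5% male N976 at 44.6%, in 5% female N987 at 38.7% and in control male N967 at 37.4%, and the diets overlapped. Elovl2-202 took 34.0% of Elovl2 reads in 5% male N976 and 18.6% in 5% male N975, against 9.29% and 0.0187% in control males N967 and N968. In 5% females the share was 9.53% and 0.124%, against 0% and 2.21% in control females. With 1% oil it was 0.0218% and 1.51% in males N971 and N972, and at most 1.3e-09% in females N983 and N984. The diets overlapped here too. Elovl3-201 and Elovl3-202 had mean shares of 58.7% and 41.3%, and in males Elovl3-201 kept between 40.8 and 48.9%. Those means include females with as few as 8 reads. In males Elovl3-202 held the larger share, from 51.1% in N968 to 59.2% in N976. Elovl1 was spread over 4 transcripts, with mean shares of 45.3%, 19.8%, 19.1% and 13.3%. The shares are estimates for transcripts that overlap, and they were not tested.

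Genes that work next to the desaturases and elongases were read from lists. None of the 6 partners of the elongation cycle, the reductases and dehydratases that complete each round, was called in any diet comparison; their medians were -0.028 for 5% against control, 0.0073 for 1% against control and 0.16 for 5% against 1% on the log2 scale. The same count of 0 held for the 5 tested genes that pass electrons to desaturases, the 4 tested other desaturases and the 4 tested ceramide synthases, with medians between -0.35 and 0.20. At an unadjusted p below 0.05 edgeR found 4 higher and 7 lower over these 4 lists and 3 comparisons. Over all genes edgeR called 2.46%, 0.224% and 1.33% in 5% against control, 1% against control and 5% against 1%. The unadjusted shares over all genes were 14.6%, 11.1% and 17.8% in the same order. Scd1, the stearoyl-CoA desaturase of the liver, was at -1.001 ± 0.40 on the log2 scale for 5% and -0.72 ± 0.40 for 1% against control (edgeR adjusted p = 0.265 and 0.526).

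Peroxisomal chain shortening trims the chains that the elongases build. With 5% oil 4 of its 14 genes rose and 0 fell, against 2.46% of all genes called, with a list median of 0.50. The bifunctional enzyme Ehhadh rose by 2.34 ± 0.24, the thiolases Acaa1b and Acaa1a by 1.29 ± 0.28 and 0.80 ± 0.19, and the isomerase Eci2 by 0.80 ± 0.19 (edgeR adjusted p = 0.000293, 0.0265, 0.0453 and 0.0434). Ehhadh stayed past the threshold in all 23 alternatives, with an adjusted p of at most 0.0109 in edgeR, DESeq2 and limma. Leaving out single livers gave 1 to 3 calls in the list: Acaa1b was lost without N979 or N980 (edgeR adjusted p = 0.0606 and 0.0842), Acaa1a without any 1 of 9 livers, that is all but N979, N983 and N975, and Eci2 without any liver but N979. Over all alternatives the adjusted p ran from 1.92e-07 to 0.171 for Acaa1b, 0.00443 to 0.135 for Acaa1a and 0.00285 to 0.125 for Eci2. The thiolases are similar copies, so their split is uncertain. With 1% oil Ehhadh and Eci2 rose by 1.55 ± 0.24 and 1.16 ± 0.19 (edgeR adjusted p = 0.0132 and 0.0224). These were 2 of 14, against 0.224% of all genes called, with a list median of 0.24. Those calls were lost for Ehhadh without N968, N984 or N972 and for Eci2 without N980, N967, N968, N984 or N972, and the highest adjusted p over all alternatives was 0.158 for Ehhadh and 0.0833 for Eci2. Without N979 Acaa1a passed as well with 1% oil, at 0.86 (edgeR adjusted p = 0.0456, in a range from 0.0346 to 0.446 over the alternatives). Of 13 acyl-CoA synthetases and acyltransferases, 1 was called with 5% oil, against 2.46% of all genes, with a list median of -0.12. This was Acsl1, which activates long fatty acids and rose by 0.63 ± 0.15 (edgeR adjusted p = 0.0465). Leaving out any liver but N967 or N988 took its adjusted p above 0.05 (without N979 it was at 0.66, edgeR adjusted p = 0.0646), and over all alternatives its adjusted p ran from 0.00119 to 0.407.

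Among 13 regulators of lipogenic transcription, 2 fell with 5% oil, against 2.46% of all genes called, and the list median was 0.12. These were Insig2 at -1.95 ± 0.35 and Insig1 at -1.43 ± 0.34, which hold the SREBP precursors in the endoplasmic reticulum (edgeR adjusted p = 0.0123 and 0.0463). Insig2 missed the threshold without N987 or N976 (edgeR adjusted p = 0.0521 and 0.051) and Insig1 without any liver but N967 or N975; without N980 Insig1 was at -0.999 and without N979 at -1.49 (edgeR adjusted p = 0.0548 and 0.0751). Over all alternatives the adjusted p ran from 3.07e-15 to 0.152 for Insig2 and from 3.46e-08 to 0.157 for Insig1. With 1% oil Insig1 had -1.76 ± 0.34 (edgeR adjusted p = 0.0558), which was past the threshold in 8 of 23 alternatives, among them leaving out N979, N980, N967, N987 or N975 (edgeR adjusted p = 0.0464, 0.0434, 0.0355, 0.0492 and 0.0426), in a range from 2.84e-12 to 0.211. For 5% against 1% it had 0.33 ± 0.33 (edgeR adjusted p = 0.627). Srebf1 itself had 0.91 ± 0.43 for 5% and -0.68 ± 0.42 for 1% against control (edgeR adjusted p = 0.362 and 0.577), and without N975 it was at 1.29 for 5% (edgeR adjusted p = 0.0415, in a range from 0.000848 to 0.621 over the alternatives). None of 10 genes of fatty acid synthesis was called by edgeR. At an unadjusted edgeR p below 0.05, 1 was lower with 5% oil and 9 with 1% oil, and 8 were higher in 5% than in 1% livers. Over all genes, in either direction, those shares were 14.6%, 11.1% and 17.8%. DESeq2 called 1 lower, 8 lower and 6 higher in the same order, limma voom 0 in each, and edgeR without N979 called 1 lower, 7 lower and 5 higher, and without N975 0, 1 lower and 3 higher. The list medians were -0.35, -1.85 and 1.52 on the log2 scale, in the order 5% against control, 1% against control and 5% against 1%. Fasn, fatty acid synthase, had -0.042 ± 0.47, -2.09 ± 0.49 and 2.05 ± 0.49 in the same order, beside 0.22, -2.24 and 2.46 for Elovl6. Without N979 Fasn passed the threshold for 1% against control at -2.38 and for 5% against 1% at 2.01 (edgeR adjusted p = 0.0227 and 0.0263), and without N975 it did so at -2.11 and 2.41 (edgeR adjusted p = 0.0432 and 0.0128); over all alternatives the adjusted p ran from 7.39e-18 to 0.411 and from 2.80e-17 to 0.234. The comparisons share livers, so these values are set side by side only.

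**Figure D5:**
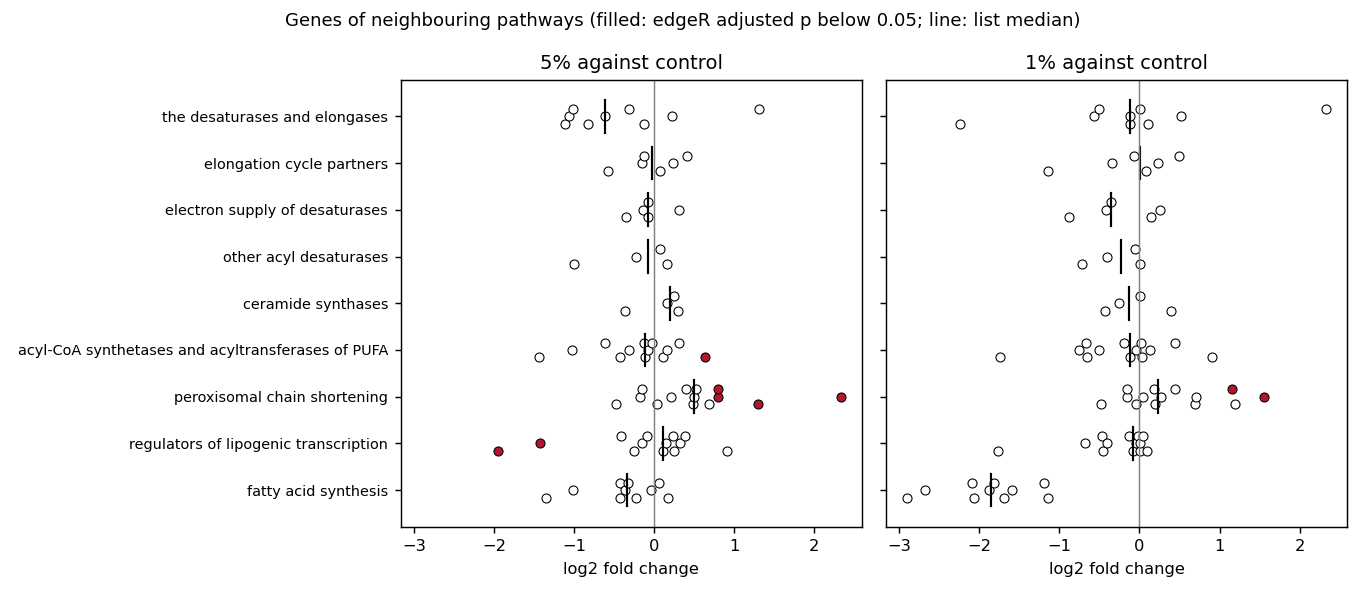
Log2 fold changes of the 9 tested genes and of the tested genes of 8 lists for 5% and 1% against control, filled where the edgeR adjusted p was below 0.05, with a line at the list median. Filled points are 4 peroxisomal genes, Acsl1 and the 2 Insig genes with 5% oil, and 2 peroxisomal genes with 1% oil.

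The authors' deposited table of test results lists 261 genes, and none of the 10 desaturases and elongases is in it. The highest adjusted p in the authors' deposited table is 0.112, and the comparison it comes from is not named there.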

How the data were processed

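Liver mRNA libraries from a stranded poly(A) kit were sequenced for 12 mice, and analysis began from the deposited tables. The gene and transcript tables hold estimated counts that the authors deposited; the submitters' processing notes name kallisto, edgeR, limma and GRCm39 and give no version or role. The deposited CPM table covers 11339 genes, 8 of the 10 members among them. The authors' table of tests gives a log2 fold change and p-values per gene, per the file headers. The labels give 4 libraries per diet; the design text speaks of more, and those are not analysed here.

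Symbols matched 48845 of the 49398 gene IDs and left 553 without one. Of the gene values 11.7% were not whole, and all were rounded. In R 4.3.3 with edgeR 4.0.16, 13814 genes passed filterByExpr over 6 diet-by-sex groups. Scaling was by TMM, and the quasi-likelihood model (robust) had terms for diet and sex, with a biological coefficient of variation of 0.266. Interactions came from a fit of the 6 groups. P-values are 2-sided, Benjamini-Hochberg adjusted over all genes tested, with a threshold of 0.05. Standard errors were obtained by dividing each absolute log2 fold change by the root of its F statistic. The 95% intervals are the log2 fold change ± 1.96 standard errors, a normal quantile. They are narrower than the F test allows and can exclude 0 where its p is above 0.05. CPM in the text are TMM scaled. Levels per length sum transcript counts over GENCODE vM21 lengths. They are scaled to the library's total of gene reads, with no TMM factor. In N979 that total leaves out 8.42% of transcript reads, so its per-length values exceed those scaled to the transcript total. Correlations used log2 CPM with a prior count of 2. DESeq2 1.42.0, limma 3.58.1 voom and limma trend (pseudocount 0.5) were among the alternatives, and the fit was tested on simulated data. Floors of 3 reads cover counting error only.

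The 10 genes were described whatever their result. From the lists, genes past the threshold in a diet comparison were named, at most 4 per list, and Srebf1, Scd1 and Fasn always. Members and lists were chosen with earlier results of these data known. Livers named one by one, and the genes among the markers, were picked after their values were seen.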

Additional observations from a re-analysis of the deposited data

Results flagged for a closer look

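The level of Elovl5 in control female N979 lay far from the other 3 control livers. It had 597 CPM, against 1898 to 2007 CPM in the others, and the gap on the log2 scale was 0.954 of the group's whole range, above Dixon's 95% critical value for 4 samples. Of 27 groups of a gene and a diet examined in this way, 1 was flagged, and chance flags about 1 in 20. N979 was also the shallowest library, at 5291385 estimated reads, and had 8.42% of its transcript reads outside its gene table.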

How the results depend on the processing

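The count of desaturases and elongases past the threshold changed with the processing. For 5% against control it was 0, and 1 with RLE scaling, 1 with upper quartile scaling, 1 with a filter of 50 reads in 4 libraries, 1 with DESeq2 (Elovl5 each time) and 4 with no filter on low counts (Elovl2, Elovl3, Elovl5 and Fads2). For 1% against control it was 0, and 1 with no filter and 1 with DESeq2 (Elovl6). For 5% against 1% it was 0, and 3 with no filter, 1 with DESeq2 and 2 with only the 2 diets in the fit. For male against female it was 1, and 4 with no filter, 2 with DESeq2, 2 with limma voom and 2 with limma trend. Leaving out single livers gave 0 to 1, 0 to 1, 0 to 2 and 1 to 5 in the same order, and 0 for both interactions. The cause was not tested. Over all genes the calls ranged from 107 to 1011, 10 to 649, 8 to 1276, 555 to 2375, 0 to 229 and 0 to 109 across settings, with no filter at the high end and no sex term at the low end of the diet comparisons. With no filter the standard error of Elovl6 for 1% against control was 0.23, against 0.65 in the main fit. The lowest adjusted p of Fasn, of Srebf1 with 5% oil and of Insig1 with 1% oil also came with no filter.

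Of the fold changes of the 9 tested desaturases and elongases, 1083 kept direction and side of the threshold. Another 32 passed it and 53 changed sign, all 53 without passing the threshold. For 5% against control Elovl1 was 0.040 with limma trend. For 1% against control Elovl3 was -0.41 with no sex term and Fads1 0.047 with limma trend. For 5% against 1% Elovl1 was -0.018 with RLE, -0.067 with upper quartile scaling, -0.033 with the stricter filter, -0.018 with DESeq2, -0.0034 with limma voom, -0.00082 with transcript sums and -0.0015 with only the 2 diets. For male against female Elovl7 was -0.18 with limma voom. For the sex difference in the 5% response Elovl5 was -0.0051 with limma voom and -0.060 with limma trend, and Elovl7 -0.70 with limma voom. In the 1% response Elovl5 was 0.0050 with RLE, 0.016 with upper quartile scaling, 0.035 with no filter and 0.0050 with DESeq2.

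Leaving out 1 liver at a time, the values that changed sign ran as follows. For 5% against control Elovl6 ran from -0.22 to 0.65 and Fads3 from -0.50 to 0.093. For 1% against control Elovl2 ran from -0.82 to 0.13, Fads1 from -0.30 to 0.27, Fads2 from -0.20 to 0.45 and Fads3 from -0.15 to 0.51. For 5% against 1% Elovl1 ran from -0.059 to 0.051, and for male against female Elovl7 from -0.27 to 0.63. For the sex difference in the 5% response Elovl5 ran from -0.89 to 0.84, Elovl7 from -3.57 to 3.77, Fads1 from -0.13 to 1.18, Fads2 from -0.19 to 1.30 and Fads3 from -0.88 to 0.62. In the 1% response Elovl2 ran from -0.35 to 1.63, Elovl5 from -1.07 to 0.60, Elovl6 from -2.81 to 0.50, Fads1 from -0.15 to 1.09, Fads2 from -0.24 to 1.195 and Fads3 from -1.12 to 0.45. Depth limits Elovl4, Elovl7 and Fads3. The genes named from the lists were put through the same alternatives after their values were seen, and many of their calls were lost. For 5% against control Acsl1 and Eci2 each lost theirs in 14 of 23 alternatives, Insig1 in 13 and Acaa1a in 12. Acaa1b lost its call in 4 and Insig2 in 3. With 1% oil Eci2 lost its call in 6 and Ehhadh in 4. For 5% against control Fasn was 0.13 with limma trend and 0.0053 with the noncoding share as a covariate, and ran from -0.38 to 0.34 without single livers. Over all alternatives peroxisomal genes called higher numbered 1 to 7 for 5% and 0 to 5 for 1% against control, and genes of fatty acid synthesis called lower 0 to 2 and 0 to 10. Pearson's r of Fads2 and Elovl6 was 0.16 without the 2 farthest livers. No paired analysis was possible because no animal number is shared by 2 groups.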
